A study of Homo sapiens with 3 samples.

Results

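The 40 genes described here encode proteins that drive mitosis and build the spindle, from the cyclins and CDK1 to the kinetochore, the mitotic kinesins and the cytokinesis machinery. They were chosen by name, as the rows of the deposited expression table whose Ensembl identifiers carry the 40 symbols, and all 40 were found among the 60504 rows of the table. The libraries came from DLD1, an established colorectal cancer cell line. There was 1 library of DLD1 control cells, which are wild type for BEX2, and 2 libraries of BEX2-/- DLD1 cells, made by CRISPR/Cas9 and labelled KO1 and KO2. No source used here says whether KO1 and KO2 are separate clones or repeat samples of 1 knockout line. Whether the spread between them is technical was not tested. Total RNA was the starting material for all 3 libraries, and the labels name no treatment. The study used them to ask how loss of BEX2 bears on metastasis. Each knockout library counted as 1 replicate and the control had no replicate, so differences between single libraries carry no test. No source used here says whether the control cells had passed through Cas9 treatment and cloning.

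Mitosis begins when cyclin B and CDK1 become active. Microtubules then attach to the kinetochores, which assemble on centromeric chromatin, and unattached kinetochores hold back anaphase through the spindle assembly checkpoint. Once the anaphase-promoting complex is released from this block, it marks cyclin B and securin for destruction, the sister chromatids part, and the cell divides. The mRNAs of most of these proteins peak in G2 and M phase, and are therefore low in cells that do not divide. Their promoters are known for CCAAT boxes, bound by NF-Y, and for the cell cycle gene homology region (CHR), bound by the MuvB complex with B-MYB or, in resting cells, as part of DREAM.

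BEX2 itself gave no check of the labels at the mRNA level. It was listed at 0 in all 3 libraries, and in the control library up to 3 reads, or 0.0538 FPKM, would still be compatible with that 0. The study checked the knockout by other means, a frameshift deletion seen by sequencing and a western blot of the protein. It had chosen DLD1 because BEX2 protein was relatively high there among colorectal cancer lines. Why the control mRNA was nevertheless at 0 was not tested. FPKM counts the fragments of a gene per kilobase of exon and relative to library size. The labelled cell type was checked with 8 epithelial and colorectal markers, which summed to between 1607 and 1864 FPKM per library, although VIL1 (villin) was at 3.61 FPKM in the control library, 13.2 for KO1 and 0.221 for KO2. Markers of leukocytes, fibroblasts, endothelium and erythroid cells, 12 in all, summed to between 0.207 and 0.764 FPKM, and PTPRC, COL3A1, CDH5 and HBB were at 0 in every library. The depth read from the steps between low values was 47458840 reads for the control, 35593998 for KO1 and 47722377 for KO2.

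The promoters below are shown because they carry 1 or both of the elements for which this gene group is known. Their genes cover much of the range of differences reported further on, but not the members furthest below the control. They are the 120 bases before the RefSeq transcription start on GRCh38.p14, 5′ to 3′ on the strand of the gene. Capitals mark CHR matches (TTTGAA or TTCGAA) and CCAAT matches, on either strand, so that TTCAAA and ATTGG are the reverse readings. Among the genes shown, CCNB2, CDC20, SPC24 and PLK1 were at least 1.5-fold lower than the control in KO2. CDC20 had the highest level of all members. INCENP was the member nearest to the control in KO2, though not in KO1.
CCNB2, chr15:59105026-59105145, plus strand: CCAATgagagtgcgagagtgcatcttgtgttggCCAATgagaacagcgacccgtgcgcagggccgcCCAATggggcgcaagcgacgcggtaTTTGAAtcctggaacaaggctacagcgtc
CDC20, chr1:43358861-43358980, plus strand: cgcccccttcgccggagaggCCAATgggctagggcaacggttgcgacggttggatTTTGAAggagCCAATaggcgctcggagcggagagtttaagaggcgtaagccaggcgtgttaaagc
PLK1, chr16:23678769-23678888, plus strand: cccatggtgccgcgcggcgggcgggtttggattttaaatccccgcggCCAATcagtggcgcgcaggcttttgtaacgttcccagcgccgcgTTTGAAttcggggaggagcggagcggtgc
INCENP, chr11:62123891-62124010, plus strand: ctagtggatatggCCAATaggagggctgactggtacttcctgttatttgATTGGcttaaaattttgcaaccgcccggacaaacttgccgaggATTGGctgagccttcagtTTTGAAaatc
SPC24, chr19:11155783-11155902, minus strand: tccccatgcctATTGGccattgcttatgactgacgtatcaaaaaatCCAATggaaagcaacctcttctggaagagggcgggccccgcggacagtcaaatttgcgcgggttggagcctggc

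CCNB2 and PLK1 both held TTTGAA with its first base 29 bases before the start, downstream of their CCAAT boxes. In INCENP the TTTGAA lay closer, from 10 bases before the start. SPC24 had CCAAT matches and no CHR match in its window. RefSeq promoter windows, from 250 bases before to 50 after the start, were matched for 34 of the 40 genes, and those of AURKA, BUB3, TTK, UBE2C, BIRC5 and TPX2 were not used here. A CHR match stood in at least 1 window of 26 of the 34 genes (76.5%), against 15.2% of 8553 expressed genes with a window and 19.5% of all 27305. A CCAAT match stood in 28 of the 34 (82.4%), against 43.5% of the expressed genes. Both were found for 22 of the 34 (64.7%) and for 6.47% of the expressed genes. Of the other mitotic genes listed further on, 79 had a window, and 63.3% of these held CHR, 64.6% CCAAT and 41.8% both. Of the G1 and S phase genes listed there, 36 had a window, with shares of 8.33%, 63.9% and 8.33%. A match is a description of the letters in the window and no evidence of binding.

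All 40 mitosis and spindle genes were lower in KO2 than in DLD1 control cells, whereas in KO1 they lay on both sides of the control. Together they summed to 1340 FPKM in the control library, 1307 for KO1 and 924 for KO2, which is 0.489%, 0.498% and 0.355% of all FPKM in each library. The median gene stood at 70.4% of its control level in KO2, with a range from 50.2% for BIRC5 to 92.6% for INCENP. In KO1 the median was 100.5% of the control level, between 82.0% for AURKB and 141.8% for KIF14. In these bulk libraries, fewer cells in G2 and M phase and less of these mRNAs per cell cannot be told apart.

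**Figure D1:**
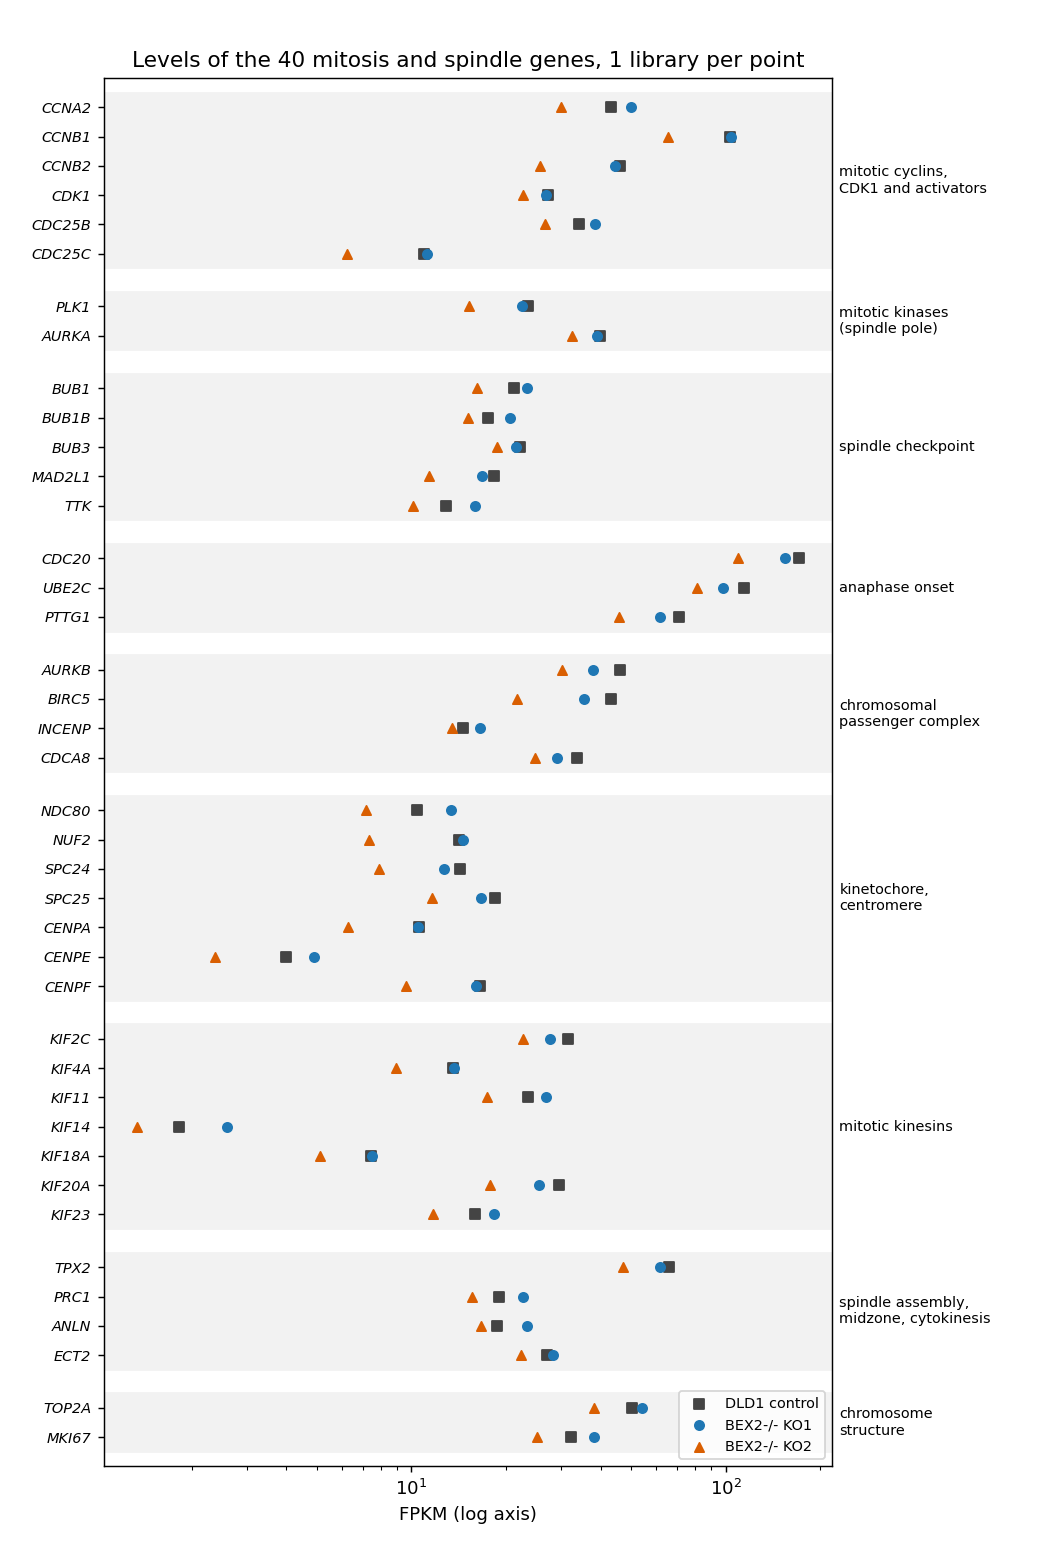
FPKM (log axis) of each of the 40 genes in the 3 libraries, with genes grouped by role and 1 point per library (squares DLD1 control, circles KO1, triangles KO2). The KO2 point is the leftmost of the 3 for every gene, while the control and KO1 points change places, the control lying between KO1 and KO2 for 21 genes and above both for 19.

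Ratios between libraries were taken as the difference in log2(FPKM + 1), which understates the change of low genes, and a gene was called past the fold at 1.5-fold or more. In KO2, 15 of the 40 genes were at least 1.5-fold lower than the control and 0 were higher by that fold. Across the 11675 genes with a mean of at least 1 FPKM, 3.56% were lower and 4.77% higher by that fold. At least 2-fold lower were 0 members, against 0.737% of all genes, and with a threshold 25% above 1 the numbers were 30 members and 13.7%. Lower by any amount were 40 of 40 members and 51.6% of all genes tested. In KO2 the log2 ratio to the control had a median of -0.48 for the members and of -0.01 over all genes tested. In KO1, 0 of 40 members were past the fold in either direction, where 2.71% of all genes were at least 1.5-fold lower and 3.55% higher. With the threshold of 25%, KIF14 and NDC80 (2 members) were higher, against 12.1% of all genes. There 19 of the 40 were lower than the control by any amount, against 43.8% of all genes tested, with a median log2 ratio of 0.01 for the members and 0.04 for all genes.

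Both comparisons use the same control library and are not independent. The comparison of KO2 with KO1 does not involve the control, but shares a library with each of them. All 40 members were lower in KO2 than in KO1, as were 57.8% of all genes tested, and 15 were lower by at least 1.5-fold, against 6.14% of all genes. At 2-fold the numbers were 0 members and 1.68% of genes, and at the 25% threshold 33 members and 17.9%. CENPE, at 48.4% of its KO1 level in KO2 by FPKM alone, stays short of 2-fold only through the added 1 FPKM. Between KO1 and KO2, the members had a median log2 ratio of -0.51 and all genes one of -0.05. At least 1.5-fold lower in both knockout libraries were 0 members, against 0.6% of all genes. Lower in both by any amount were 19 members (27.7% of all genes), and 21 were higher in KO1 and lower in KO2 (23.9%).

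No member passed the test of both knockout libraries against the control. In limma's moderated test of log2(FPKM + 1) over 11675 genes, which takes the spread from the 2 knockout libraries and assumes that the lone control varies as they do, 0 genes of any kind had an adjusted p under 0.05, and 139 of all genes (1.19%) but 0 members had an unadjusted p under 0.05. The lowest p among the members was that of AURKB, whose log2 difference was -0.44 ± 0.22 (SE, limma, 1 control and 2 knockout libraries) with an unadjusted p of 0.130 and an adjusted p of 1.00. The spread in this test rests on the difference between 2 knockout libraries.

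Counting error was small beside these differences. Whole reads were recovered for 38 of the 40 genes, from 466 reads for KIF14 in KO2 to 19640 for MKI67 in DLD1 control cells. The exact 95% counting interval of the fold to the control lay wholly below 1 in KO2 for 38 of 38 genes, against 36.3% of 10483 genes with recovered reads. In KO1 it lay wholly below 1 for 15 genes and wholly above 1 for 15, against 26.5% and 37.6% of those genes. Between KO1 and KO2, 38 of 38 intervals lay wholly below 1, against 41.9%. Such intervals compare single libraries, not conditions, and cover counting error only.

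Among the 6 genes of mitotic entry, the cyclins stood further below the control in KO2 than their kinase. CCNB1 (ENSG00000134057, cyclin B1, the main activator of CDK1) was at 103 FPKM in the control library, 104 for KO1 and 65.3 for KO2, with a knockout mean of 84.7 ± 27.3 FPKM (SD, n = 2). CCNB2 (ENSG00000157456, cyclin B2) was at 46.1, 44.3 and 25.6 FPKM in the same order, with log2 ratios of -0.06 in KO1 and -0.83 in KO2. CCNA2 (cyclin A2, which acts from S phase to early mitosis) was at 43.0, 50.1 and 30.0 FPKM. For each of these cyclins KO2 was the lowest library, and KO1 lay beside the control for CCNB1 and CCNB2 and above it for CCNA2. CDK1 (ENSG00000170312), the kinase itself, was at 27.3 FPKM in the control library, 26.9 for KO1 and 22.6 for KO2, a log2 ratio of -0.26 in KO2. The phosphatases that remove the inhibitory phosphates of CDK1 differed in the same way. CDC25C was at 11.0, 11.2 and 6.22 FPKM, past the fold in KO2 (log2 ratio -0.73), and CDC25B was at 34.2, 38.3 and 26.7 FPKM, not past it (-0.35).

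The kinases of the spindle pole repeated this contrast. PLK1, polo-like kinase 1, needed for centrosome maturation and bipolar spindles, was at 23.4 FPKM in the control library, 22.4 for KO1 and 15.3 for KO2, and its log2 ratio of -0.59 in KO2 was only just past 1.5-fold. AURKA (Aurora A) was at 39.9, 38.9 and 32.4 FPKM (-0.29 in KO2). In KO1 both were within 0.1 log2 units of the control.

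Of the 5 checkpoint genes, MAD2L1 alone was past the fold in KO2. MAD2L1 encodes MAD2, the inhibitor of CDC20 made at unattached kinetochores, and stood at 18.3 FPKM in the control library, 16.8 for KO1 and 11.4 for KO2 (log2 ratio -0.63). BUB1, BUB1B (BUBR1), BUB3 and TTK (MPS1, the kinase at the top of the checkpoint) had log2 ratios between -0.37 and -0.20 in KO2. In KO1, TTK was at 16.0 FPKM against 12.9 in DLD1 control cells (0.29) and BUB1B at 20.6 against 17.6 (0.22). These and BUB1 were above the control in KO1 and below it in KO2, whereas BUB3 and MAD2L1 were lowest in KO2 and highest in the control.

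The genes of anaphase onset were below the control in both knockout libraries. CDC20, the activator of the anaphase-promoting complex, had the highest level per length of all members, at 171 FPKM in the control library, 155 for KO1 and 110 for KO2 (16540, 11234 and 10664 reads). UBE2C, the ubiquitin-conjugating enzyme of the same complex, was at 114, 97.9 and 81.0 FPKM. PTTG1 (securin, the inhibitor of separase) was at 71.3, 61.7 and 45.7 FPKM. For all 3 the order was control, KO1, KO2, with log2 ratios from -0.22 to -0.14 in KO1 and from -0.64 to -0.49 in KO2. The related PTTG2 and PTTG3P, with which reads of PTTG1 could be shared, held between 0 and 7 reads per library.

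The chromosomal passenger complex, which corrects faulty kinetochore attachments and later directs cytokinesis, held the members farthest from and nearest to the control in KO2, BIRC5 and INCENP. BIRC5 (ENSG00000089685, survivin) lies at chr17:78214186-78225636 of GRCh38 and was at 43.2 FPKM in the control library, 35.5 for KO1 and 21.7 for KO2 (7815, 4824 and 3948 reads). Its log2 ratios were -0.27 and -0.96, and its fold of 0.502 in KO2 had a counting interval from 0.483 to 0.522. AURKB, Aurora B, the kinase of the complex, was at 46.3, 38.0 and 30.2 FPKM, and CDCA8 (borealin) at 33.6, 29.1 and 24.7 FPKM. These 3 genes had the same order of libraries, the control highest and KO2 lowest. INCENP (ENSG00000149503), the scaffold that joins them, was at 14.6 FPKM in the control library, 16.6 for KO1 and 13.5 for KO2, with log2 ratios of 0.17 and -0.10.

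The kinetochore and centromere genes had the lowest median of the larger role groups in KO2, a log2 ratio of -0.67, with 5 of 7 genes past the fold. The 4 subunits of the NDC80 complex, which binds microtubule ends, had unequal ratios. NUF2 (ENSG00000143228) was at 14.2 FPKM in the control library, 14.6 for KO1 and 7.34 for KO2 (log2 ratios 0.04 and -0.86). SPC24 was at 14.3, 12.7 and 7.91 FPKM (-0.17 and -0.78), and SPC25 at 18.4, 16.7 and 11.6 FPKM (-0.14 and -0.62). NDC80 itself was at 10.4, 13.3 and 7.15 FPKM, above the control in KO1 (0.33) and below it in KO2 (-0.49). Thus the lowest library was KO2 for each subunit, but KO1 stood above the control for NDC80 and below it for SPC24 and SPC25. CENPA, the histone H3 variant that marks centromeres, was at 10.6, 10.5 and 6.31 FPKM. CENPF, a large protein of the outer kinetochore, was at 16.6, 16.0 and 9.63 FPKM, and CENPE, a kinetochore kinesin, held 1793, 1647 and 1069 reads (log2 ratios 0.24 and -0.57).

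Of the 7 mitotic kinesins only KIF20A was past the fold in KO2. KIF20A (MKLP2, which brings the passenger complex to the spindle midzone) was at 29.5 FPKM in the control library, 25.4 for KO1 and 17.8 for KO2 (log2 ratio -0.70). KIF2C (MCAK, a microtubule depolymerase) had the same order, at 31.5, 27.6 and 22.7 FPKM. KIF11 (Eg5, which pushes the spindle poles apart) was at 23.6, 26.8 and 17.4 FPKM, KIF4A, a chromokinesin, at 13.6, 13.7 and 8.94 FPKM, and KIF18A, which dampens chromosome movements, at 7.47, 7.49 and 5.11 FPKM. KIF23 (MKLP1, a subunit of centralspindlin) was at 16.0, 18.4 and 11.7 FPKM. KIF14 had the lowest level of all members, at 1.82, 2.59 and 1.34 FPKM, which is 630, 670 and 466 reads. On the log2(FPKM + 1) scale it was 0.34 above the control in KO1 and 0.27 below it in KO2, and it is the member whose ratios the added 1 FPKM shrinks most. KIF4B, a near copy of KIF4A, held between 2 and 4 reads.

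No gene of spindle assembly, midzone and cytokinesis, and neither chromosome structure gene, was past the fold. TPX2, the activator of Aurora A on spindle microtubules, was at 66.0 FPKM in the control library, 61.8 for KO1 and 47.0 for KO2 (log2 ratio -0.48 in KO2). PRC1, the bundler of midzone microtubules, ANLN (anillin, of the contractile ring) and ECT2 (the activator of RhoA in cytokinesis) had ratios between -0.27 and -0.16 in KO2 and between 0.06 and 0.31 in KO1. Of PRC1's exon bases, 57.6% lie also in a readthrough gene annotated on the same strand, whose level was not used here. TOP2A (topoisomerase II alpha) was at 50.5, 54.2 and 38.0 FPKM, and MKI67 (the Ki-67 antigen, which coats mitotic chromosomes) was at 32.3, 38.2 and 25.2 FPKM. For both, the control lay between KO1 and KO2.

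Exon length ran alongside the ratios. Across the 40 members Spearman's rho between merged exon length and log2 ratio was 0.55 in KO1 and 0.46 in KO2, as a description over genes that share the same libraries. Over 11598 genes tested with a known length it was 0.24 and 0.25. Of the 20 members with the shorter exons (1286 to 3958 bases), 15 were below the control in KO1, with a median log2 ratio of -0.11. Of the 20 with the longer exons (4314 to 12807 bases), 4 were, with a median of 0.17. In KO2 the medians were -0.63 and -0.36, both below 0. For KO2 against KO1, in which the control takes no part, rho was -0.09 over the members and 0.04 over all genes. With the mean level over the 3 libraries, rho over the members was -0.44 in KO1, -0.02 in KO2 and 0.39 for KO2 against KO1. Over all genes with a known length it was -0.14, -0.12 and 0.0049 in the same order. The part of exon length or of level in the ratios was not tested.

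**Figure D2:**
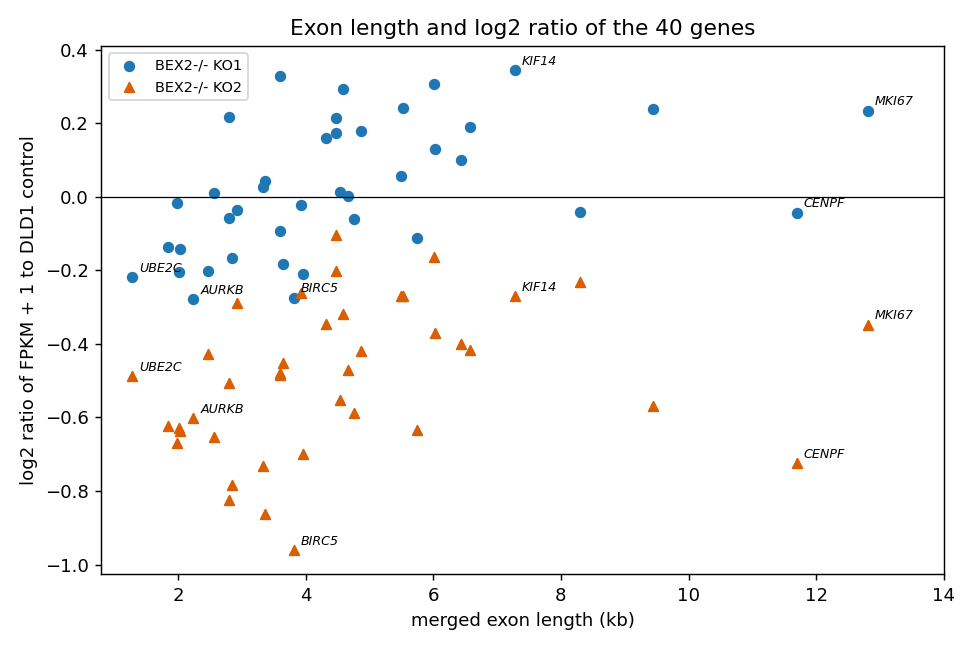
Merged exon length (kb) against the log2 ratio of FPKM + 1 to DLD1 control cells for the 40 genes, in KO1 (circles) and KO2 (triangles). Short genes such as UBE2C and AURKB lie below 0 in both knockout libraries, most genes of over 4 kb lie above 0 in KO1, and every gene of any length lies below 0 in KO2.

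All 40 members were below the control in KO2, so every split by promoter match had to lie below it too. A member without a match is one whose windows lack the exact letters searched. The median log2 ratio in KO2 was -0.42 for the 26 members with a CHR match and -0.62 for the 8 without one, namely CCNA2, CCNB1, PTTG1, AURKB, SPC24, CENPE, KIF2C and KIF20A. The ranges overlapped, from -0.86 to -0.10 and from -0.78 to -0.45. In KO1 the medians were 0.05 and -0.17. By CCAAT match the KO2 medians were -0.53 for 28 members with and -0.47 for 6 without.

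The other mitotic genes shared the direction of the members in KO2. A list of 94 of them covered further kinetochore subunits, condensins, cohesins, the anaphase-promoting complex and spindle proteins. Of these, 89 were below the control in KO2 and 42 in KO1, against 51.6% and 43.8% of all genes tested. The median log2 ratios of the list were -0.31 in KO2 and 0.03 in KO1. In KO2, 15 of the 94 were at least 1.5-fold lower and 0 higher, against 3.56% and 4.77% of all genes tested. The lowest by the mean of both knockout libraries were CENPM and CENPH, subunits of the constitutive centromere network, and CDCA3, a mitotic entry factor. CENPM was at 29.5 FPKM in the control library, 20.1 for KO1 and 16.2 for KO2, and CDCA3 was at 13.3, 9.43 and 7.81 FPKM. Among the highest were STAG2, a cohesin subunit, and CDC27, a scaffold subunit of the anaphase-promoting complex. STAG2 was at 9.16, 11.9 and 10.2 FPKM and CDC27 at 9.78, 11.7 and 11.6 FPKM, with both knockout libraries above the control.

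Genes of G1 and S phase differed from the mitotic genes in KO1. Of 43 tested genes of 44 listed, 38 were below the control in KO1 and 34 in KO2, against 43.8% and 51.6% of all genes tested. Their median log2 ratios were -0.19 in KO1 and -0.28 in KO2, against 0.01 and -0.48 for the members. Between KO1 and KO2 the median was -0.06 for G1 and S phase genes, near that of all genes, and -0.51 for the members. GINS2, a subunit of the replicative helicase, was at 20.6 FPKM in the control library, 14.7 for KO1 and 13.4 for KO2. CDC45, of the same helicase, was at 18.6, 14.4 and 13.5 FPKM, and TYMS (thymidylate synthase) at 35.0, 31.0 and 21.3 FPKM. At the other end, CDK6, a kinase of G1 phase, had log2 ratios of -0.21 and 0.70, and CCNE2 and GINS4 had mean log2 ratios of 0.17 and 0.14. No test of the difference between the lists was made.

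**Figure D3:**
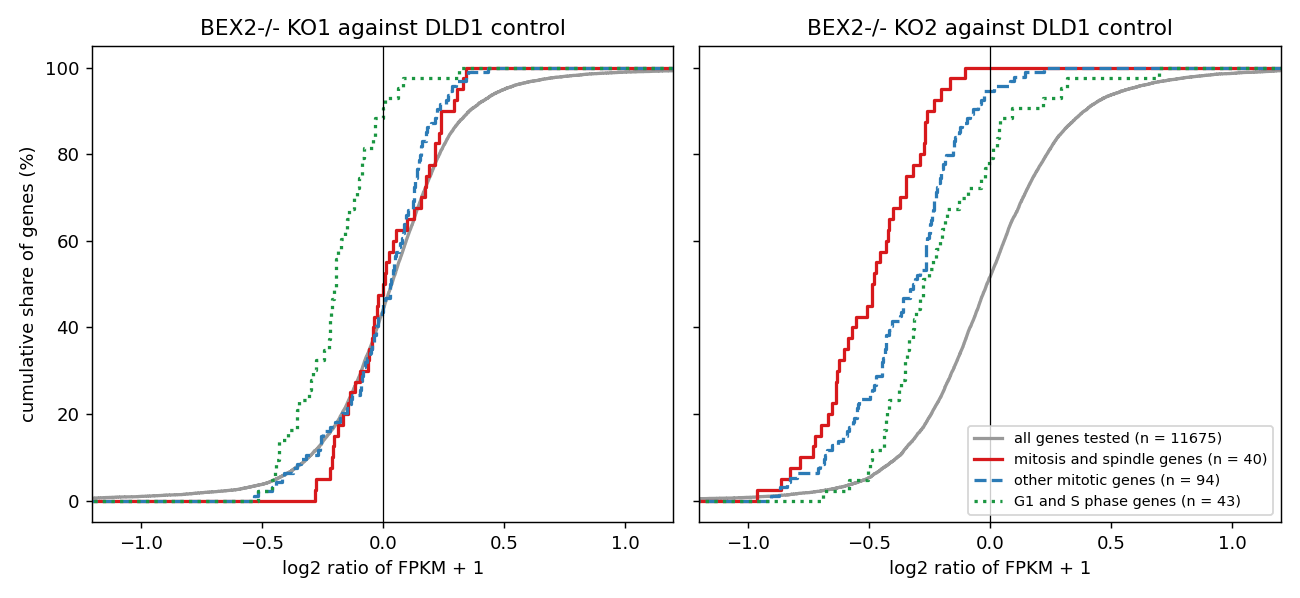
Cumulative share of genes (%) by log2 ratio of FPKM + 1 to the control, for KO1 (left) and KO2 (right), in all 11675 genes tested, the 40 mitosis and spindle genes, 94 other mitotic genes and 43 G1 and S phase genes. In KO1 the mitotic curves run with that of all genes and the G1 and S phase curve is shifted left (median -0.19), while in KO2 the 40 genes lie furthest left (median -0.48) and reach 100% before 0.

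Transcription factors of the mitotic programme were below the control in KO2 in part. Of 23 tested of 24 listed, 17 were lower in KO2 and 11 in KO1, against 51.6% and 43.8% of all genes tested. At least 1.5-fold lower in KO2 were 2, against 3.56% of all genes, and neither is among the genes named here. FOXM1, which drives G2 and M phase genes, was at 27.2 FPKM in the control library, 25.3 for KO1 and 18.3 for KO2, the order also seen for 19 members. MYBL2 (B-MYB) was lowest in KO1 instead, at 49.1, 36.3 and 40.5 FPKM. E2F1 was at 20.4, 19.4 and 13.4 FPKM. NFYA, a subunit of NF-Y, was above the control in both knockout libraries, at 5.63, 6.62 and 7.51 FPKM, and E2F3 and RB1 had mean log2 ratios of 0.15 and 0.13.

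The CDK inhibitors lay on both sides of the control, and some were highest in KO2. CDKN1A (p21) was at 4.24 FPKM in the control library, 6.68 for KO1 and 12.3 for KO2, with log2 ratios of 0.55 and 1.34. CDKN2B (p15, an inhibitor of CDK4 and CDK6) was at 0.379, 0.879 and 5.71 FPKM, which is 73, 127 and 1106 reads. For these 2 genes the order of the libraries was control, KO1, KO2, the reverse of that of 19 members. CDKN1C (p57) was at 4.05, 3.13 and 7.33 FPKM. CDKN2C (p18) ran the other way, at 2.48, 2.89 and 0.903 FPKM, and CDKN1B (p27) was at 19.6, 21.1 and 15.3 FPKM. CDKN2D (p19) was at 3.49, 4.82 and 3.03 FPKM. CDKN2A held 2, 3 and 37 reads, at most 0.179 FPKM. In KO2, 3 of 6 tested inhibitors were above the control and 3 below it by any amount. At least 1.5-fold higher were 3 and at least 1.5-fold lower was 1, against 4.77% and 3.56% of all genes tested. Whether these levels bear on those of the mitotic genes was not tested.

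**Figure D4:**
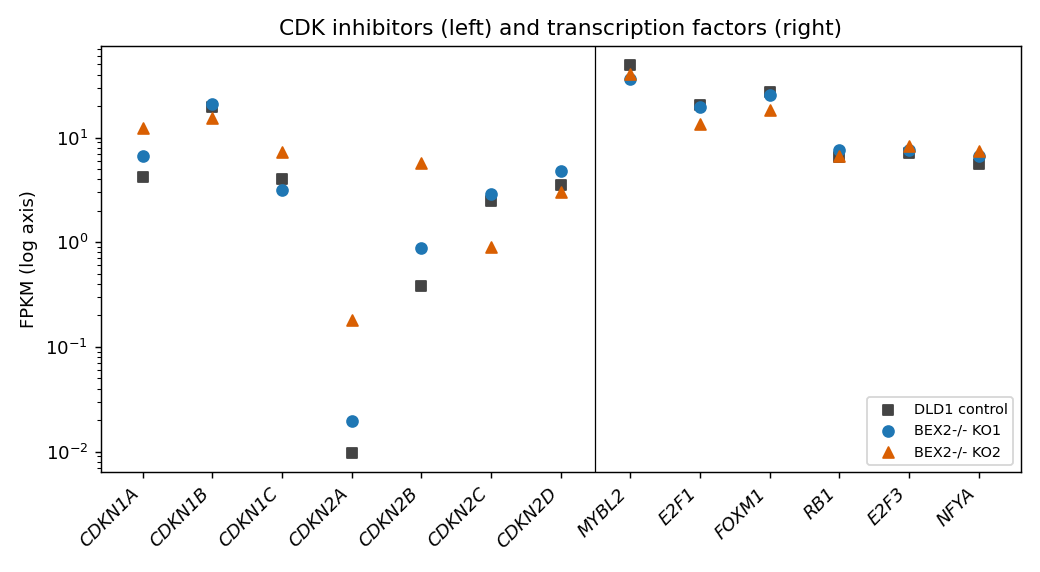
FPKM (log axis) of the 7 CDK inhibitors (left of the line) and of 6 transcription factors (right of it) in the 3 libraries, 1 point per library. CDKN1A and CDKN2B step upward from control to KO1 to KO2, and E2F1 and FOXM1 are lowest in KO2.

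The scale of the libraries was checked with ACTB and GAPDH. Their log2 ratios to the control were -0.27 and -0.17 in KO1 and -0.10 and -0.05 in KO2. All 40 members stayed below the control in KO2 when the libraries were scaled by median ratio or to TPM. In KO1 the number below the control was 19 as deposited, 24 with median-ratio scaling and 13 with TPM scaling, and the share of all genes below the control was 43.8%, 50.7% and 35.5%. In KO1 the balance of the members thus moved with the scaling, as did that of all genes.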

How the data were processed

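The 3 DLD1 libraries were prepared from total RNA with an Illumina TruSeq RNA kit and then sequenced. The authors deposited FPKM per gene. The submitters' processing notes name Trim Galore 0.3.7, STAR 2.5, Cufflinks 2.2.1, DESeq 1.22.1 and the build hg19. Symbols came from a table of Ensembl identifiers, and exon lengths and positions from GENCODE release 29 on GRCh38 (56996 of 60504 identifiers). Promoters came from RefSeq (GRCh38.p14), so no coordinate is on hg19, the build that the notes name. Which annotation the deposited values rest on is not known. The kit's strand was not stated, and 15 members overlap exons of another gene.

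Genes were tested where the control level and the average of the knockout libraries together had a mean of 1 FPKM or more. Ratios were differences of log2(FPKM + 1), and both knockout libraries were compared with the control by limma 3.58.1 (R 4.3.3, trend, Benjamini-Hochberg). Reads were recovered as FPKM times exon length times the depth at which low values became whole (tolerance 0.02), for 98.4% to 98.6% of low values of single-transcript genes and 88.6% to 88.9% of others. A count of 0 allows 3 reads. Counting intervals of folds were exact (conditional binomial, Clopper-Pearson, 95%). FPKM is no count, so DESeq was not run. Python 3.11.15 was used. The methods were tested on simulated data.

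The members, lists, 1.5-fold threshold and tests were chosen with earlier results of these data known. Named were all members, from longer lists the 3 highest and 3 lowest genes by mean ratio, all genes of short lists, BEX2, ACTB, GAPDH, and, after values were seen, genes sharing sequence with members and the promoters shown. Some items that this rule names are not reported here. Alternatives were a pseudocount of 0.1 FPKM, no filter, a mean of at least 5 FPKM, 2 scalings, fold thresholds of 2 and of 25% above 1, no trend and the omission of each knockout library.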

Additional observations from a re-analysis of the deposited data

How the results depend on the processing

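All 40 members (38 of 38 with a mean of at least 5 FPKM) stayed lower in KO2 than in the control and than in KO1 under the pseudocount of 0.1 FPKM, no filter, both scalings and the stricter filter. The number past the fold moved with the threshold. With a fold of at least 2, it was 0 for KO2 against the control and 0 for KO2 against KO1. With a threshold 25% above 1, it was 30 and 33, and 2 for KO1 against the control. With a fold of 1.5 it lay between 11 and 17 for KO2 against the control and between 10 and 17 for KO2 against KO1, and stayed at 0 for KO1. In limma's test 0 members had an adjusted p under 0.05 under every setting, with a lowest adjusted p of 0.942 to 1.00. Averaged over both knockout libraries, the members' log2 ratio had a median of -0.25. It lay between -0.28 and -0.21 under the other pseudocount, filters and scalings, and between -0.48 (without KO1) and 0.0065 (without KO2), so that it rests on KO2. Without 1 of them, limma has no residual degree of freedom and gave no test. Among the 34 members with a window, CHR matches stood in 24 as TTTGAA alone and in 20 upstream of the start. Under the same rules, the shares of expressed genes with a window were 13.3% and 13.2%. No paired analysis was possible because there is 1 control library for 2 knockout libraries. Depth limits little here, since the 38 members with recovered reads had at least 466 each, but 1 control library leaves the spread between control cultures unknown.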
